A study of Homo sapiens with 22 samples.

Results

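Transcripts of the leukocyte integrins and of CD44, the adhesion receptors that carry many of the surface names used to stage myeloid cells, were followed across 11 groups of cultured leukaemia cells. The set was ITGAM, ITGAX, ITGAL, ITGB2, ITGA4, ITGA5, ITGB1, ITGB7 and CD44, taken by symbol, 9 of the 28063 genes listed for each of 22 libraries. All 9 passed the filter on low counts. An integrin is a pair of 1 alpha and 1 beta chain that spans the membrane, and neither chain reaches the surface well without its partner. ITGAL (CD11a), ITGAM (CD11b) and ITGAX (CD11c) share the beta chain ITGB2 (CD18) and bind ICAM proteins, complement fragments and fibrinogen. ITGA4 pairs with ITGB1 or ITGB7 to bind VCAM1, fibronectin or MADCAM1, ITGA5 pairs with ITGB1 as a fibronectin receptor, and CD44 binds hyaluronan.

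MOLM-13, MV-4-11 and THP-1 are established acute myeloid leukaemia lines with monocytic features. Each line was grown with the solvent DMSO or with 1 µM BRM014 for 24 h or 72 h, a compound that blocks SMARCA4 and SMARCA2, the motor subunits of SWI/SNF remodellers. THP-1 also received 10 nM of the phorbol ester PMA for 48 h and then a rest of 24 h, or 72 h of 3 µM DB2313, which interferes with DNA binding by PU.1. Every group had 2 libraries, all labelled wild type. For the DMSO cells the labels give no culture time, so both BRM014 times of a line were set against the same 2 DMSO libraries and the 4 treatments of THP-1 against the same 2. Whether the 2 libraries of a group came from separate cultures is not stated, and each p-value here speaks only of library spread, possibly technical. The labels also do not say that the DB2313 libraries were prepared together with the DMSO libraries or any others.

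Library totals ran from 15893489 to 21565666 reads in genes, and 3 reads corresponded to 0.139 to 0.189 CPM, the unit in which a gene's reads are scaled to its library's total. Reads outside annotated genes made up 12.03% to 19.17%. The 2 PMA libraries stood further apart than any other pair, with a chi-square of 30.4 per degree of freedom between their counts against 3.14 to 10.7 in the other 10 groups, and with 16.02% and 12.43% of reads outside genes. Myeloid markers other than the 9 genes summed to between 831 and 11449 CPM per library, and PTPRC, SPI1 and CD68 had at least 82.5, 52.6 and 99.5 CPM in each. Defining markers of other lineages were at or near 0: CD3G reached 0.189 CPM, MS4A1 0.157 CPM, and PF4 and KRT5 had no read in 22 libraries. The lists of other lineages summed to at most 56.5 CPM for T and NK cells (mostly NKG7), 32.5 CPM for B cells, 37.5 CPM for erythroid cells and megakaryocytes (nearly all GP9, in DB2313) and 154 CPM for epithelial cells and fibroblasts (mostly COL1A1 and CDH1, in THP-1 with BRM014 for 72 h). In bulk RNA, fewer cells of a type and less RNA per cell cannot be told apart.

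All 3 alpha chains of ITGB2 lie on chromosome 16 (GRCh38, GENCODE v29). ITGAL is at 30472658 to 30523185, ITGAM at 31259967 to 31332892 and ITGAX at 31355134 to 31382997, all on the plus strand. ITGB2 is at 44885953 to 44931989 of chromosome 21 on the minus strand. ITGA4 lies on chromosome 2 (181457202 to 181536187, plus), ITGB1 on chromosome 10 (32900319 to 33005792, minus) and CD44 on chromosome 11 (35138870 to 35232402, plus). ITGA5 (54395261 to 54419460) and ITGB7 (53191318 to 53207307) are both on the minus strand of chromosome 12.

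The stretch upstream of ITGAM is shown because ITGAM had the largest rise of the 9 genes with DB2313, and because its promoter is a textbook target of PU.1. The binding sites of PU.1 often hold the letters GAGGAA. Only these letters were searched for PU.1, so sites with other letters are not marked. The sequence comes from the RefSeq promoter table (GRCh38.p14), chr16:31259725-31259966 on the plus strand, and ends just before the annotated gene. Capitals mark the only GAGGAA match on either strand.
ITGAM: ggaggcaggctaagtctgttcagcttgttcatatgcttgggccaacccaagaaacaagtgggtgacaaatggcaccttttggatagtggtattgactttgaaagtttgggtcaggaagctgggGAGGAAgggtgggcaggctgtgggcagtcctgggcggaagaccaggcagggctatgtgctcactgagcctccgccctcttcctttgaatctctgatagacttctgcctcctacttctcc
The match begins 127 bases upstream of the RefSeq start. Of the 9 genes, 6 were in that table. Within 250 bases upstream of the RefSeq start, GAGGAA also occurred once for ITGB7 (28 bases) and once in 1 of the 2 ITGB1 entries (184 bases). It did not occur for ITGA4, ITGA5 or CD44. Unlike the ITGAM match, those of ITGB7 and ITGB1 lie inside the GENCODE bounds of their genes given above. The core letters of RUNX sites (TGTGGT) and of AP-1 sites (TGANTCA) matched none of these windows on either strand, so no motif overlapped another. Over all 35116 promoter windows of that length, 23.6% held GAGGAA, 11.0% TGTGGT and 6.57% TGANTCA. A match is a run of letters and was not tested as a binding site.

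Before any inhibitor, the lines already carried different receptor sets. A gene was called changed at an adjusted p under 0.05 in edgeR's quasi-likelihood test, fitted to all 22 libraries and adjusted over the 16794 genes tested. MV-4-11 with DMSO differed from MOLM-13 in 9 of 9 genes, 3 higher and 6 lower. Of all genes, 52.3% were called in that comparison, 24.3% higher and 27.9% lower. Against MV-4-11, THP-1 had 6 higher and 3 lower, beside 64.7% of all genes called (35.2% higher, 29.5% lower). Against MOLM-13 it had 3 higher, 2 lower and 4 not called, beside 64.8% (34.2% higher, 30.5% lower). MV-4-11 was the line low in ITGB2, ITGAM and ITGB7: its log2 difference from MOLM-13 was -2.61 ± 0.09 (SE) for ITGB2, -3.63 ± 0.14 for ITGAM and -4.34 ± 0.19 for ITGB7. It was the line high in CD44, by 1.73 ± 0.12 over MOLM-13 (edgeR adjusted p = 9.33e-11). The adjusted p of the other 3 differences lay between 2.26e-15 and 1.08e-13. Differences near the threshold turned on single libraries or on the processing. ITGB1 in MV-4-11 against MOLM-13 (0.22 ± 0.08, adjusted p = 0.0288) was not called without the second MOLM-13 library (0.324) or either MV-4-11 library (0.0675 and 0.133). In THP-1 against MV-4-11, ITGA4 (0.31 ± 0.10) was not called without the first MV-4-11 (0.0570) or the second THP-1 library (0.0882), nor ITGB1 (-0.29 ± 0.08) without the first THP-1 library (0.0615). In THP-1 against MOLM-13, ITGAX (0.32 ± 0.15, adjusted p = 0.0646) was called without the second MOLM-13 library (0.55, adjusted p = 0.0109) and, with all libraries, in 5 of 7 other fits (adjusted p from 0.00930 to 0.0430). ITGB7 there (0.29 ± 0.13, adjusted p = 0.0534) was called in 7 of 7 other fits (adjusted p from 0.00385 to 0.0484), but in none of the 4 fits that left out a library.

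**Figure D1:**
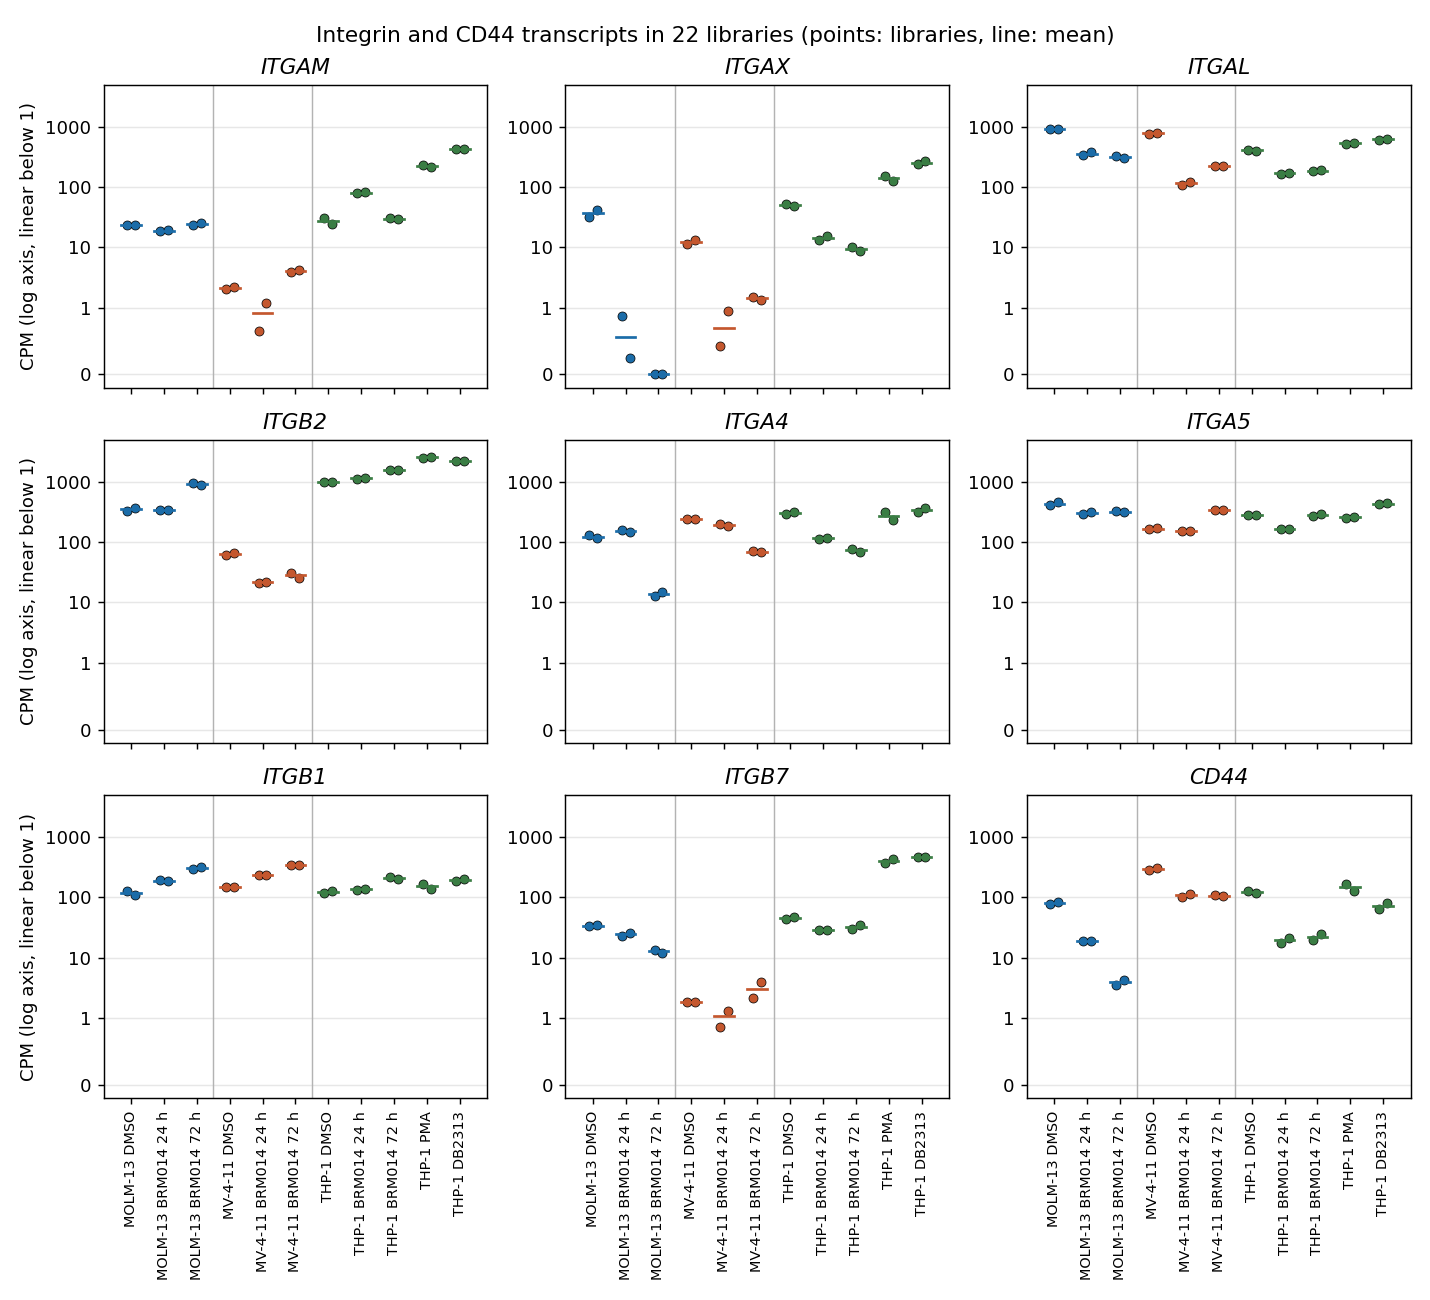
CPM of each of the 9 genes (y axis, logarithmic, linear below 1) in the 22 libraries by line and treatment (x axis); points are libraries and short lines group means. ITGAX fell to 0 reads in MOLM-13 with BRM014 for 72 h, ITGAM and ITGB7 stood highest in THP-1 with PMA or DB2313, and MV-4-11 was lowest for ITGB2, ITGAM and ITGB7.

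BRM014 lowered most of the 9 transcripts, and the beta chain ITGB1 went the other way. In the 54 comparisons of a gene with DMSO (3 lines, 2 times), 36 were called lower, 11 higher and 7 neither. Of all genes, 46.1% to 59.7% were called at a given line and time, and both times of a line shared their DMSO libraries. ITGAX, ITGAL and CD44 were lower in 6 of 6, ITGA4 and ITGB7 in 5 of 6 and ITGA5 in 4 of 6. ITGB1 was higher in 5 of 6 and lower in none. ITGAM and ITGB2 each had 2 higher, 2 lower and 2 not called. In the mean of lines, 56% of all genes were called at 24 h (28.9% higher, 27.1% lower) and 65.3% at 72 h (34.9% higher, 30.4% lower). Of the 10 myeloid markers outside the 9 genes, 1 was called higher and 8 lower in that mean at 24 h (median log2 fold change -1.36), and 2 and 7 at 72 h (-1.08). Their summed level was 1293 to 1327 CPM with DMSO, 867 to 874 at 24 h and 2212 to 2255 at 72 h in MOLM-13. The sums were 1498 to 1510, 831 to 879 and 1352 to 1395 CPM in MV-4-11, and for THP-1 3286 to 3461, 1553 to 1584 and 1374 to 1391 CPM. Their part in the changes of the 9 genes was not tested.

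At 24 h, MOLM-13 had 1 of the 9 genes higher and 6 lower, beside 22.7% of all genes higher and 23.5% lower (46.2% called). MV-4-11 had 1 higher and 8 lower, beside 23.6% and 22.4% (46.1% called). THP-1 had 1 higher and 6 lower, beside 25.9% and 24.1% (50% called). After 72 h the counts were 2 higher and 6 lower for MOLM-13, beside 30.3% and 29.4% of all genes (59.7% called). They were 4 higher and 5 lower for MV-4-11, beside 28.4% and 26.1% (54.5% called), and 2 higher and 5 lower for THP-1, beside 30.9% and 28% (58.9% called). Averaged over lines at 24 h, 1 was higher and 7 lower, beside 28.9% and 27.1% (56% called). The median log2 fold change of the 9 genes was -0.60, -1.24 and -0.83 at 24 h in MOLM-13, MV-4-11 and THP-1, and -1.60, -1.22 and -0.57 at 72 h. The median over all genes lay between 0 and 0.06 in these 6 comparisons. Both times share their DMSO libraries.

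ITGAX (CD11c) is the alpha chain of complement receptor 4 and a marker of dendritic cells and macrophages. With BRM014 it had the largest fall of the 9 genes in MOLM-13 and MV-4-11. In THP-1 the fall of CD44 was larger at 24 h (-2.69 ± 0.13) and similar at 72 h (-2.56 ± 0.13). MOLM-13 libraries held 31.8 and 41.5 CPM with DMSO, 0.869 and 0.243 CPM after 24 h of BRM014, and no read after 72 h. MV-4-11 held 11.6 and 13.4 CPM with DMSO, 0.432 and 0.95 at 24 h, and 1.51 and 1.35 at 72 h. THP-1 held 53.4 and 48.7 CPM with DMSO, 13.3 and 15.3 at 24 h, and 10.3 and 8.77 at 72 h. Treated and DMSO libraries of a line never overlapped. At 24 h the log2 fold change was -6.16 ± 0.27 in MOLM-13, -4.21 ± 0.28 in MV-4-11 and -1.88 ± 0.16 in THP-1 (edgeR adjusted p from 1.02e-12 to 1.01e-08). The first of these was -7.33 without the first 24 h library and -5.51 without the other, and the MV-4-11 value was -4.91 without the second 24 h library. At 72 h ITGAX was at least 475-fold lower in MOLM-13, from 1196 reads to 0 and with the floor of 3 reads taken over the group. MV-4-11 gave -3.19 ± 0.25 and THP-1 -2.5 ± 0.17 at that time. From 24 h to 72 h it fell further in THP-1 (-0.62 ± 0.18, adjusted p = 0.0120), a call lost without 1 of the second libraries at 24 h (0.101) or 72 h (0.108). In MV-4-11 the step was 1.02 ± 0.42 (adjusted p = 0.0677), and it was called without the second 24 h library (1.71, adjusted p = 0.0330), in DESeq2 (0.0132), with no filter (0.0113) and in a fit to that line alone (0.0301).

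ITGAL (CD11a), the alpha chain of LFA-1 that carries leukocyte adhesion to ICAM1, was abundant in every DMSO group and fell everywhere with BRM014. The MOLM-13 libraries held 939.7 and 941 CPM with DMSO, 346 and 379.6 at 24 h, and 332 and 310.3 at 72 h. MV-4-11 held 776 and 804 CPM with DMSO, 109 and 123 at 24 h, and 226.9 and 226.8 at 72 h. THP-1 held 414 and 401 CPM with DMSO, 168 and 175 at 24 h, and 186 and 192 at 72 h. No treated library reached a DMSO library of its line. The log2 fold change was -1.50 ± 0.07 and -1.74 ± 0.07 in MOLM-13 (24 h, 72 h). For MV-4-11 the pair was -2.84 ± 0.07 and -1.86 ± 0.07, for THP-1 -1.30 ± 0.07 and -1.19 ± 0.07. The edgeR adjusted p was at most 7.88e-12 in these 6. MV-4-11 regained some ITGAL between the times (0.98 ± 0.07, adjusted p = 6.01e-10), and in THP-1 the step was 0.10 ± 0.07 (adjusted p = 0.266). In MOLM-13 the step was -0.24 ± 0.07 (adjusted p = 0.00546), a call lost without the second library at 24 h (adjusted p = 0.0978) or at 72 h (0.0783).

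ITGAM (CD11b), the alpha chain of complement receptor 3 and the usual marker of myeloid maturation, had no shared direction. In THP-1 it went from 30.8 and 24.5 CPM with DMSO to 79.8 and 83.1 CPM at 24 h, and was back at 30.5 and 29.4 CPM at 72 h. The 24 h rise was 1.52 ± 0.09 on the log2 scale (edgeR adjusted p = 6.14e-11), the fall from 24 h to 72 h was -1.48 ± 0.09, and the difference left at 72 h was 0.04 ± 0.10 (adjusted p = 0.768), with overlapping libraries. MOLM-13 held 23.9 and 23.6 CPM with DMSO, 18.6 and 19.1 at 24 h, and 23.6 and 25.5 at 72 h. Its 24 h value was lower (-0.46 ± 0.11, adjusted p = 0.00111) and its 72 h value was not called (-0.15 ± 0.10, adjusted p = 0.226). MV-4-11 stayed low throughout, at 2.06 and 2.16 CPM with DMSO, 0.649 and 1.19 at 24 h, and 3.84 and 4.15 at 72 h. There it was lower at 24 h (-1.24 ± 0.24) and higher at 72 h (0.86 ± 0.18), a step of 2.1 ± 0.21 between the times.

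ITGB2 (CD18), the beta chain that all leukocyte integrins of this family need, split by line. MOLM-13 libraries held 334 and 368 CPM with DMSO, 339 and 348 at 24 h, and 954 and 908 at 72 h. MV-4-11 held 60.5 and 65.7 CPM with DMSO, 21.1 and 22.2 at 24 h, and 31.2 and 25.3 at 72 h. THP-1 held 989 and 1007 CPM with DMSO, 1138 and 1173 at 24 h, and 1586 and 1583 at 72 h. At 72 h ITGB2 was higher in MOLM-13 (1.22 ± 0.08) and THP-1 (0.58 ± 0.08) and lower in MV-4-11 (-1.22 ± 0.09), with edgeR adjusted p from 5.80e-11 to 3.03e-06. At 24 h it was lower in MV-4-11 (-1.61 ± 0.09), while MOLM-13 (-0.16 ± 0.08, adjusted p = 0.121) and THP-1 (0.17 ± 0.08, adjusted p = 0.0942) were not called. The first of these was called lower without its first DMSO library (adjusted p = 0.0490) and with no filter (0.0398), and the second higher with library size alone (0.0227) and in a fit to its own DMSO and BRM014 groups (0.0141). ITGB2-AS1 lies over ITGB2 on the opposite strand, was counted separately and reached at most 54.02 CPM (a DB2313 library). Without a stated strand setting, it is not known how reads from their overlap were assigned or whether they were set aside as ambiguous.

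ITGB2 was set against its alpha chains per length, as ratios with no test. Levels here are CPM per kb of exon, the sum of ITGAL, ITGAM, ITGAX and ITGAD standing for the alpha chains. In MOLM-13 that sum went from 155 ± 1.03 (SD, n = 2) with DMSO to 53.9 ± 2.12 at 72 h while ITGB2 went from 51.6 ± 3.54 to 137 ± 4.78. The ratio of ITGB2 to the sum was 0.334 ± 0.02 with DMSO, 0.851 ± 0.04 at 24 h and 2.54 ± 0.01 at 72 h. THP-1 had ratios of 1.96 ± 0.09, 3.97 ± 0.04 and 6.51 ± 0.07 in the same order. In MV-4-11 it stayed far below 1, at 0.0746 ± 0.002, 0.173 ± 0.009 and 0.115 ± 0.02. ITGAL made up 93.9% of the alpha sum in MOLM-13, 98.2% in MV-4-11 and, for THP-1, 83.9%, all with DMSO. At 24 h of BRM014 in THP-1 its share was 61.8% and that of ITGAM 33.4%, against 6.46% for ITGAM with DMSO.

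**Figure D2:**
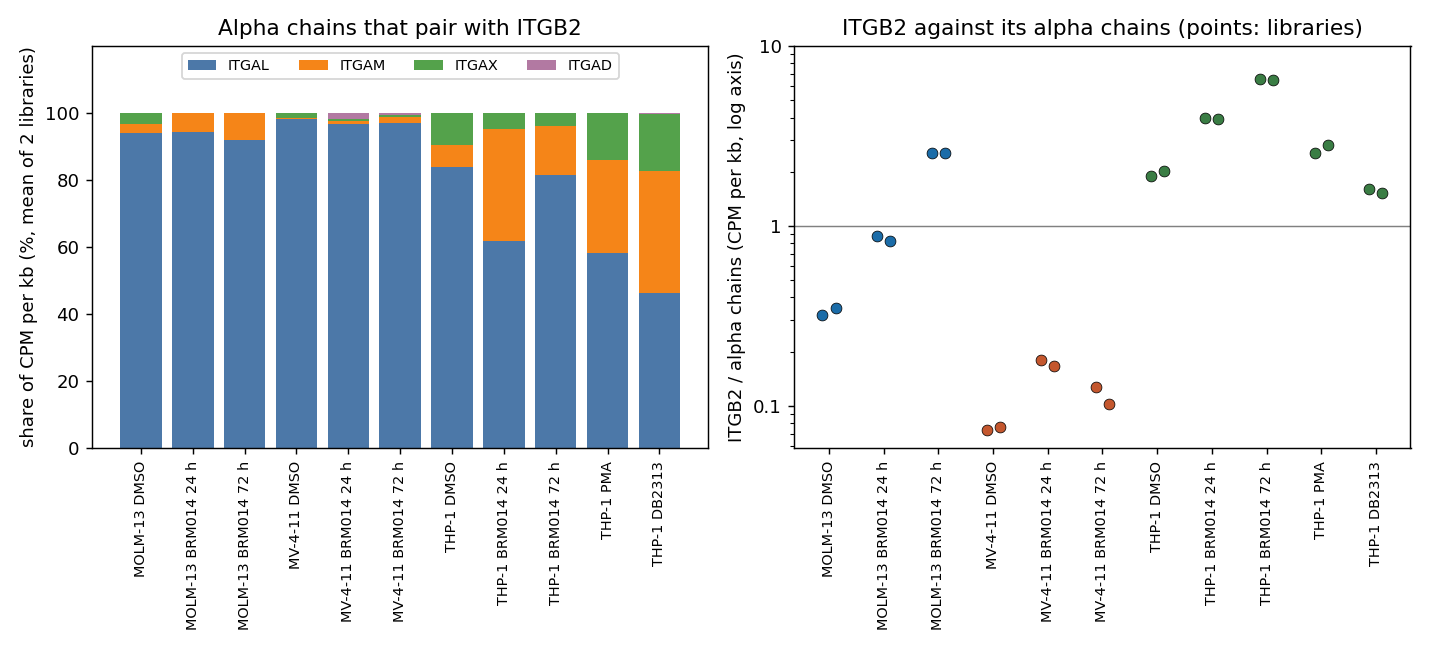
Left, the share of each ITGB2 partner in the summed CPM per kb of the alpha chains (%, mean of 2 libraries); right, ITGB2 over that sum in each library (logarithmic axis, points coloured by line). ITGAL dominated MOLM-13 and MV-4-11 in every group, and its share was lowest, 46.2%, in THP-1 with DB2313; the ratio of ITGB2 to its partners was 0.334 and 1.96 with DMSO in MOLM-13 and THP-1, and 2.54 and 6.51 with BRM014 for 72 h.

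ITGA4 (CD49d), the alpha chain of VLA-4 that holds leukaemic cells to VCAM1 in marrow, fell late in MOLM-13 and at both times in THP-1 and MV-4-11. MOLM-13 libraries held 133 and 116 CPM with DMSO, 158 and 149 at 24 h, and 12.8 and 15.1 at 72 h. MV-4-11 held 244.7 and 243.9 CPM with DMSO, 203 and 187 at 24 h, and 70.6 and 68.7 at 72 h. THP-1 held 297 and 313 CPM with DMSO, 113.8 and 118.1 at 24 h, and 77.3 and 70.0 at 72 h. At 72 h the log2 fold change was -3.35 ± 0.12 in MOLM-13, -1.87 ± 0.11 in MV-4-11 and -2.14 ± 0.11 in THP-1 (edgeR adjusted p from 4.08e-15 to 6.95e-12). At 24 h it was 0.18 ± 0.10 in MOLM-13 (adjusted p = 0.174, or 0.30 and 0.0293 with library size alone), -0.39 ± 0.10 in MV-4-11 and -1.44 ± 0.10 in THP-1. From 24 h to 72 h all 3 lines fell, with steps of -3.53 ± 0.12, -1.47 ± 0.11 and -0.69 ± 0.11 in that order.

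ITGA5 (CD49e), the fibronectin receptor chain, went down in 4 comparisons and up in 1. MOLM-13 held 415 and 467 CPM with DMSO, 293 and 319.7 at 24 h, and 332 and 315 at 72 h, a log2 fold change of -0.65 ± 0.07 and then -0.64 ± 0.07. THP-1 held 289.6 and 285 CPM with DMSO, 166 and 167 at 24 h, and 278 and 297 at 72 h. It was lower at 24 h there (-0.83 ± 0.07, edgeR adjusted p = 1.09e-08), with overlapping libraries and no call at 72 h (-0.08 ± 0.07, adjusted p = 0.345), though it was called in a fit to the DMSO and BRM014 groups of THP-1 alone (-0.14, adjusted p = 0.0243). MV-4-11 held 164 and 174 CPM with DMSO, 155.1 and 155.0 at 24 h, and 347 and 349 at 72 h. Its 72 h value was higher (0.98 ± 0.07, adjusted p = 4.68e-10). Its 24 h value of -0.19 ± 0.07 (adjusted p = 0.0371) lost its call with library size alone as scaling (0.167), without either 24 h library (0.123 and 0.129) and without the second DMSO library (0.284).

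ITGB1 (CD29), the beta chain that pairs with ITGA4 and ITGA5 and is expressed by most cell types, rose. MOLM-13 held 127 and 108 CPM with DMSO, 195 and 186 at 24 h, and 297 and 318 at 72 h. MV-4-11 held 149.6 and 152 CPM with DMSO, 234 and 232 at 24 h, and 351 and 347 at 72 h. THP-1 held 119 and 129 CPM with DMSO, 135 and 139 at 24 h, and 222 and 203 at 72 h. The treated libraries lay above DMSO in every line at both times. The 72 h log2 fold change was 1.20 ± 0.08, 1.15 ± 0.08 and 0.69 ± 0.08 in MOLM-13, MV-4-11 and THP-1 (edgeR adjusted p from 7.71e-11 to 3.83e-07). At 24 h it was 0.57 ± 0.08, 0.56 ± 0.08 and 0.09 ± 0.08, the last with adjusted p = 0.357. Each line rose from 24 h to 72 h by 0.60 to 0.63.

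ITGB7, the alternative partner of ITGA4 that binds MADCAM1 on gut endothelium, was modestly lower in MOLM-13 and THP-1. MOLM-13 held 33.0 and 34.4 CPM with DMSO, 23.3 and 25.3 at 24 h, and 13.6 and 11.8 at 72 h, giving -0.60 ± 0.13 and -1.60 ± 0.14 on the log2 scale. THP-1 held 44.2 and 47.1 CPM with DMSO, 28.2 and 29.1 at 24 h, and 30.3 and 34.8 at 72 h, giving -0.72 ± 0.13 and -0.57 ± 0.13. These 4 changes had edgeR adjusted p from 3.86e-09 to 0.000955. MV-4-11 was almost without ITGB7, at 1.83 and 1.82 CPM with DMSO, 0.865 and 1.28 at 24 h, and 2.09 and 3.998 at 72 h. The calls there, lower at 24 h (-0.82 ± 0.32, adjusted p = 0.0451) and higher at 72 h (0.70 ± 0.26, adjusted p = 0.0313), were each lost without either DMSO library (adjusted p from 0.0941 to 0.134) and in a fit to MV-4-11 alone (0.0772 and 0.115). The 24 h call was also lost with library size alone (0.0570). The 72 h value dropped to 0.13 (adjusted p = 0.795) without the second 72 h library, and the 24 h value was -0.58 (0.261) without the first 24 h library. ZNF740 overlaps ITGB7 on the opposite strand, at 33.8 to 85.4 CPM per library.

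CD44, the hyaluronan receptor used as a marker of leukaemic stem cells, fell in all 3 lines. MOLM-13 held 79.2 and 83.3 CPM with DMSO, 19.0 and 19.2 at 24 h, and 3.56 and 4.31 at 72 h. MV-4-11 held 289 and 306 CPM with DMSO, 103 and 113 at 24 h, and 110.4 and 104 at 72 h. THP-1 held 127 and 119 CPM with DMSO, 17.7 and 21.5 at 24 h, and 19.8 and 24.6 at 72 h. DMSO and treated libraries did not overlap in any line. The log2 fold change was -2.21 ± 0.13 and then -4.56 ± 0.16 in MOLM-13, -1.53 ± 0.11 at both times in MV-4-11, and for THP-1 -2.69 ± 0.13 before -2.56 ± 0.13 (edgeR adjusted p at most 8.89e-10). The further fall of -2.35 ± 0.17 from 24 h to 72 h was called in MOLM-13, where the steps in MV-4-11 (0.0037 ± 0.11, adjusted p = 1) and THP-1 (0.14 ± 0.14, adjusted p = 0.465) were not.

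**Figure D3:**
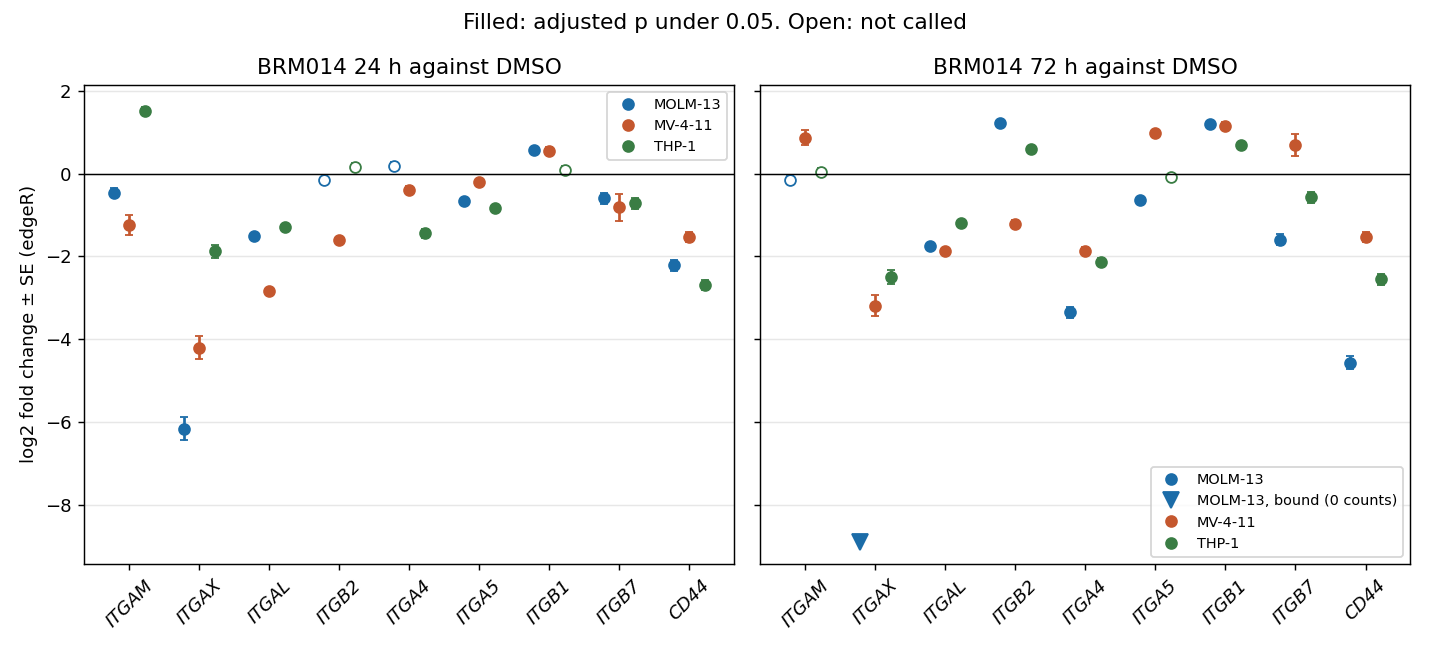
Log2 fold change of BRM014 against DMSO (y axis) for the 9 genes at 24 h and 72 h, by line; bars are SE, filled points have an adjusted p under 0.05 and open points do not. The triangle is the bound for ITGAX in MOLM-13 at 72 h, at least 475-fold lower; ITGAL and CD44 lie below 0 in every line and ITGB1 above 0.

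From 24 h to 72 h of BRM014, MOLM-13 gained 3 and lost 5 of the 9 transcripts, beside 43.5% of all genes called (20.8% higher, 22.7% lower). MV-4-11 had 6 higher and 1 lower, beside 35.4% (18.6% and 16.9%). THP-1 had 3 higher and 3 lower, beside 32.7% (16.2% and 16.5%). ITGA4 was the 1 gene lower in MV-4-11, and ITGB2 and ITGB1 were higher in all 3 lines. The ITGB2 step in MV-4-11 (0.40 ± 0.10) lost its call without the first 72 h library (0.23, edgeR adjusted p = 0.127). In MOLM-13, the ITGAM step (0.31 ± 0.10, adjusted p = 0.0182) was lost without either 24 h library or without the second 72 h library (adjusted p from 0.0715 to 0.140).

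ITGB1 and ITGB7, the 2 beta chains open to ITGA4, were compared in the same way. Per kb of exon, ITGB1 over ITGB7 in MOLM-13 was 2.61 ± 0.38 (SD, n = 2) with DMSO, 5.85 ± 0.54 at 24 h and 18.2 ± 2.73 at 72 h. THP-1 had ratios of 2.03 ± 0.02, 3.56 ± 0.009 and 4.90 ± 0.79. MV-4-11, with ITGB7 near 0, had 61.5 ± 0.95, 168 ± 47.5 and 94.9 ± 42.6. The ratio of ITGA4 to ITGA5 in MOLM-13 was 0.273 ± 0.05 with DMSO, higher at 24 h (0.483 ± 0.05) and lower at 72 h (0.0414 ± 0.006). MV-4-11 had 1.39 ± 0.06, 1.21 ± 0.07 and 0.192 ± 0.005 in that order, and THP-1 had 1.02 ± 0.05, 0.668 ± 0.02 and 0.246 ± 0.03.

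The size of the BRM014 effect depended on the line for most of the 9 genes. A test of the difference between lines was passed by 8 of 9 genes at 24 h, where 43.5% of all genes passed it, and by 9 of 9 at 72 h, where 52.9% did. ITGB7 at 24 h was the exception (adjusted p = 0.814), with values of -0.60, -0.82 and -0.72 in MOLM-13, MV-4-11 and THP-1.

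PMA, which drives THP-1 toward adherent macrophage-like cells, raised 7 of the 9 genes and lowered none. Of all genes, 36.1% were called, 18.9% higher and 17.1% lower. The median log2 fold change was 0.47 for the 9 genes and -0.02 for all genes. DB2313 also raised 7 and lowered 1, CD44, where 65.4% of all genes were called, 35.9% higher and 29.5% lower. The medians were 0.57 and 0.14. Both comparisons used the same DMSO libraries, and their values are given side by side.

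ITGAM and ITGB7 had the steepest rises. ITGAM stood at 229.6 and 218 CPM with PMA and 428 and 438 CPM with DB2313, beside 30.8 and 24.5 with DMSO, a log2 fold change of 3.11 ± 0.10 and 3.90 ± 0.10. ITGB7 stood at 369.8 and 437 CPM with PMA and 473 and 476 CPM with DB2313, beside 44.2 and 47.1, or 3.23 ± 0.13 and 3.30 ± 0.13. The edgeR adjusted p was at most 8.23e-14 for these 4, and no treated library came near the DMSO libraries. The windows upstream of the RefSeq starts of both genes hold the letters GAGGAA, for ITGB7 inside the gene as annotated in GENCODE. An ITGB1 window and 23.6% of all promoter windows hold them too. ITGAX, ITGAL and ITGB2 had no window to search, and a link of these letters to the rises was not tested. ITGAX rose to 155 and 129 CPM with PMA (1.56 ± 0.14) and to 244.7 and 268 CPM with DB2313 (2.25 ± 0.15), from 53.4 and 48.7.

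ITGB2 reached its highest level of the study with PMA, at 2479.7 and 2655 CPM (1.45 ± 0.08), and stood at 2242.5 and 2229 CPM with DB2313 (1.09 ± 0.08). ITGAL changed less, to 531 and 536 CPM with PMA (0.47 ± 0.07) and 612 and 642 CPM with DB2313 (0.55 ± 0.07), above its 414 and 401 CPM with DMSO. Per kb of exon, ITGAL accounted for 58.1% ± 1.80 (SD, n = 2) of the alpha chains with PMA and 46.2% ± 0.07 with DB2313, against 83.9% ± 1.08 with DMSO. ITGAM took 27.7% and 36.3%, and ITGAX 14.1% and 17.3%. With its partners rising too, ITGB2 over their sum was 2.66 ± 0.19 with PMA and 1.57 ± 0.06 with DB2313, beside 1.96 ± 0.09 with DMSO.

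The ITGA4 and ITGA5 chains moved little. ITGA4 was not called with PMA (313 and 232 CPM, -0.08 ± 0.10, edgeR adjusted p = 0.574) or with DB2313 (323 and 367 CPM, 0.10 ± 0.10, adjusted p = 0.387). With DMSO it was 297 and 313 CPM, a range that the first PMA library fell in and the second lay below. Without the first PMA library it was called lower (-0.29, adjusted p = 0.0161), and without the second the value was 0.10 (adjusted p = 0.422). ITGA5 was not called with PMA (254 and 267 CPM, -0.06 ± 0.07, adjusted p = 0.594) and was higher with DB2313 (432 and 446 CPM, 0.54 ± 0.07). ITGB1 was higher with both, at 166 and 139 CPM (0.38 ± 0.08) and 187 and 201 CPM (0.57 ± 0.08). Since ITGB7 rose far more, ITGB1 over ITGB7 per kb went from 2.03 with DMSO to 0.286 ± 0.07 with PMA and 0.305 ± 0.01 with DB2313.

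CD44 parted the 2 agents. It was 170 and 129.5 CPM with PMA and 64.5 and 79.9 CPM with DB2313, beside 127 and 119 with DMSO. DB2313 lowered it (-0.84 ± 0.11, edgeR adjusted p = 2.26e-06). The PMA value of 0.37 ± 0.11 (adjusted p = 0.0152) lost its call with library size alone (0.0697), in a fit without the DB2313 libraries and the other lines (0.0838), without the second DMSO library (0.108) and without the first PMA library (0.206). The difference between PMA and DB2313 itself was not tested. The summed myeloid markers were 3286 to 3461 CPM with DMSO, 11361 to 11449 CPM with PMA and 1815 to 1922 CPM with DB2313. Such sums follow the most abundant markers, and LYZ alone reached 8432 CPM in a library. Of the 10 markers, 8 were called higher and 1 lower with PMA (median log2 fold change 0.81). With DB2313, 5 were called higher and 4 lower (median 0.16, beside 0.14 for all genes). The lower sum with DB2313 was thus not a fall shared by most markers. The part of these markers in the changes with PMA and DB2313 was not tested.

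**Figure D4:**
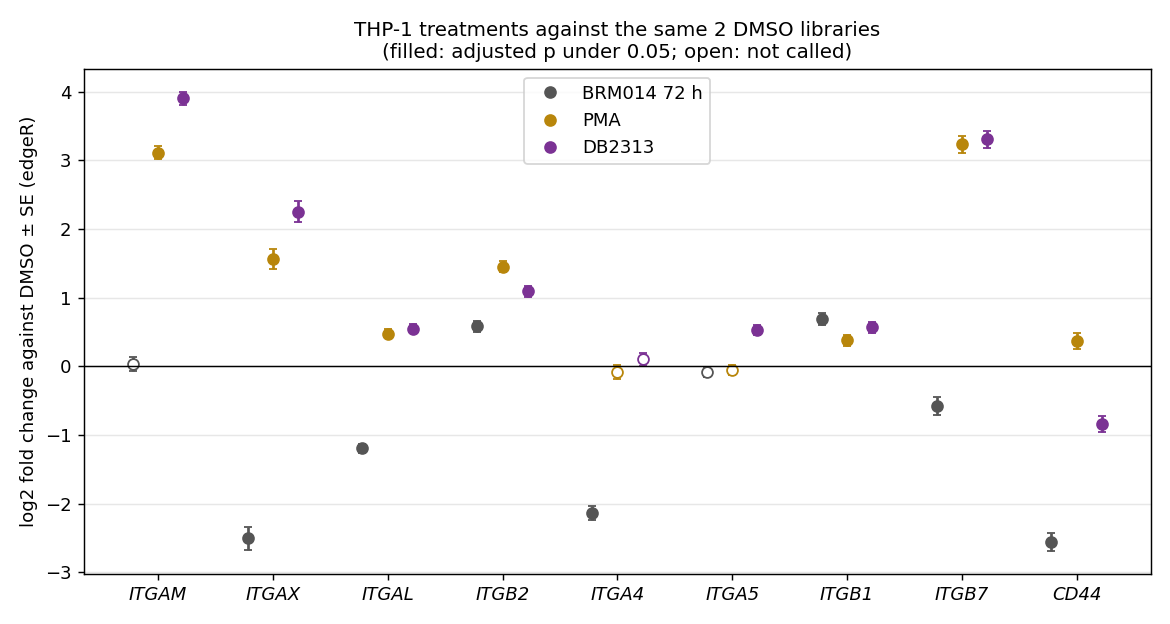
Log2 fold change against DMSO (y axis) of the 9 genes in THP-1 after 72 h of BRM014, PMA or DB2313, all set against the same 2 DMSO libraries; bars are SE, filled points have an adjusted p under 0.05. ITGAM and ITGB7 lie between 3.11 and 3.90 with PMA and DB2313, and CD44 is at -2.56 with BRM014, 0.37 with PMA and -0.84 with DB2313.

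BRM014 and DB2313, both at 72 h in THP-1 but at doses of 1 µM and 3 µM, were set against each other directly. The labels do not say that libraries of both agents were prepared together, so preparation and agent cannot be told apart here. With BRM014, 8 of the 9 genes were lower than with DB2313 and none was higher, where 61.3% of all genes were called, 30.4% higher and 30.9% lower. The median log2 difference was -1.74 for the 9 genes and 0.01 for all genes. ITGAX differed by -4.75 ± 0.17, ITGB7 by -3.88 ± 0.13 and ITGAM by -3.86 ± 0.10. ITGA4 differed by -2.24 ± 0.11, ITGAL by -1.74 ± 0.07 and CD44 by -1.71 ± 0.13. ITGA5 (-0.62 ± 0.07) and ITGB2 (-0.51 ± 0.08) differed least among those called, all 8 with edgeR adjusted p at most 1.59e-05. ITGB1 was not called (0.12 ± 0.08, adjusted p = 0.197), at 222 and 203 CPM with BRM014 and 187 and 201 CPM with DB2313.

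The 11 groups were ordered by the mean level of each gene, and neighbours were apart where their libraries did not overlap. ITGAL was apart at all 10 steps, from MOLM-13 with DMSO (mean 940.3 CPM) to MV-4-11 with BRM014 for 24 h (116 CPM). ITGB2 and ITGB7 were apart at 9 of 10 steps, ITGAX at 8, ITGAM and ITGB1 at 7, ITGA4 and CD44 at 6 and ITGA5 at 5. Steps apart were not counted over all genes, so how far these counts are particular to the 9 genes is not known. ITGB2 ran from 2567 CPM in THP-1 with PMA to 21.7 CPM in MV-4-11 with BRM014 for 24 h, with only the DMSO and 24 h groups of MOLM-13 overlapping as neighbours. ITGA5 had the smallest ratio between its highest and lowest group, from 441 CPM in MOLM-13 with DMSO to 155 CPM in MV-4-11 with BRM014 for 24 h. ITGB1 was highest in MV-4-11 with BRM014 for 72 h, at 349 CPM, and lowest in MOLM-13 with DMSO, at 117.6 CPM. CD44 was highest in MV-4-11 with DMSO, at 298 CPM, and lowest in MOLM-13 with BRM014 for 72 h, at 3.93 CPM.

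Genes with the most similar profile over the 11 group means (Pearson r of log2 CPM) were given by rank as a description. The groups share lines and DMSO libraries, and such ranks over 11 points carry no test. For ITGAM the nearest were TBC1D9B (0.97), MTCH1 (0.97) and ITGB7 (0.97), and for ITGB7 they were ITGAM, MTCH1 (0.96) and EOMES (0.96). ITGAX was nearest to MEI1 (0.97), PSTPIP1 (0.97) and RUNX3 (0.96). ITGAL was nearest to LINC01678 (0.94), SLCO4A1-AS1 (0.93) and ADAT2 (0.93), and ITGB2 to ARRDC4 (0.98), ZNF302 (0.97) and LOC389834 (0.97). ITGA4 was nearest to ORC6 (0.94), PHF19 (0.93) and WEE1 (0.92), and ITGA5, with the lowest values, had FMNL3 (0.88) and C8orf76 (0.84) among its nearest 3. ITGB1 had CHURC1 (0.93) and SLC38A7 (0.93) among its nearest 3, and CD44 was nearest to SLC19A2 (0.98), UBE2E1 (0.97) and EFTUD2 (0.97). With Spearman's rho in place of r, 5 of the 27 names ranked in this way stayed.

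Other genes of the adhesion machinery were described from 5 lists. In each, the mean effect over the 3 lines after 72 h of BRM014 is set beside PMA and DB2313 in THP-1, and all use the counts called and the median log2 fold change. Each count below is to be read beside the share of all genes called. PMA had 36.1% of all genes called, 18.9% higher and 17.1% lower, with a median of -0.02. DB2313 had 65.4% called, 35.9% higher and 29.5% lower, with a median of 0.14. The mean over lines had 65.3% of all genes called at 72 h, 34.9% higher and 30.4% lower, with a median of 0.07. The 9 genes had 3 higher, 5 lower and 1 not called in it. The last was ITGA5 (0.09 ± 0.04, edgeR adjusted p = 0.0760), which was called without the second MOLM-13 DMSO library (0.12, adjusted p = 0.0145) and with library size alone (0.20, adjusted p = 0.000155).

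Of the other integrin subunits, 16 of 18 were tested, and 5 were higher and 3 lower with BRM014 at 72 h. Their median was 0.01, or 0.31 with the 5 genes that had a group without reads placed at their bound. ITGA6, a laminin receptor chain, rose in each line, from 3.87 to 21.7 CPM in MOLM-13, 5.30 to 21.4 in MV-4-11 and 9.67 to 83.2 in THP-1 (mean effect 2.42 ± 0.08, edgeR adjusted p = 5.59e-16). ITGA7, another laminin receptor chain, fell in each, from 82.2 to 20.5, 30.5 to 6.70 and 57.7 to 9.11 CPM (-2.39 ± 0.08). ITGB3, the beta chain of platelets and osteoclasts, rose from low levels by 2.90 ± 0.36, to 0.844 CPM in MOLM-13, 10.8 in MV-4-11 and 0.853 in THP-1. ITGA11, a collagen receptor chain, was called lower, but MOLM-13 and MV-4-11 had only 6 and 15 reads with DMSO. In THP-1 it went from 3.97 to 0.313 CPM (-3.70).

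PMA raised 5 of those subunits and lowered 3 (median 0.33), and DB2313 raised 11 and lowered 1 (median 1.73). ITGA6 went to 121 CPM with PMA (3.73 ± 0.13), and ITGB5, a vitronectin receptor chain, from 7.50 to 64.7 CPM (3.20 ± 0.19). ITGB8 rested on 1 read with DMSO and 21 with PMA, a ratio of 19.2 with an exact 95% counting interval from 3.09 to 796, and its call was lost without any 1 of the 4 libraries (edgeR adjusted p from 0.0751 to 0.192). ITGA2B, the platelet integrin alpha chain, went from 0.966 to 146 CPM with DB2313 (7.19 ± 0.22, edgeR adjusted p = 1.17e-15), and ITGB3 from 4 to 71 reads (3.83 ± 0.68, or 4.89 and 3.11 without the first or second DMSO library). Erythroid and megakaryocyte markers, nearly all of it GP9, summed to 3.07 to 3.32 CPM with DMSO and 37.3 to 37.5 CPM with DB2313. GP9, the 1 gene of that list tested, was called higher there (3.55), PF4 was at 0, and their part in these rises was not tested. ITGAD, the remaining partner of ITGB2, had 1 read with DMSO and 64 with DB2313, a ratio of 57.7 (10.0 to 2315).

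Of the integrin activation and adaptor genes, 25 of 26 were tested, and 7 were higher and 14 lower with BRM014 at 72 h (median -0.30). FERMT1, a kindlin that activates integrins, fell from 12.6 to 0.696 CPM in MOLM-13, 58.6 to 19.7 in MV-4-11 and 9.65 to 2.5 in THP-1 (-2.68 ± 0.10). APBB1IP, the RAP1 effector that recruits talin, rose from 118 to 440 CPM, 81.3 to 376 and 74.7 to 96.5 in those lines (1.38 ± 0.05). Paxillin (PXN), a focal adhesion adaptor, rose from 15.5 to 58.1, 4.76 to 23.2 and 38.4 to 63.4 CPM (1.52 ± 0.07). PTK2, the focal adhesion kinase, rose in MOLM-13 (5.82 to 57.4 CPM, 3.11) and THP-1 (17.3 to 71.5 CPM, 1.97), while all 6 MV-4-11 libraries together held 1 read. PMA raised 11 and lowered 6 (median 0.21), with FERMT2, another kindlin, from 1.10 to 11.1 CPM (3.44 ± 0.47, or 4.17 without the first DMSO library), FYB1, an adaptor of integrin activation, from 46.8 to 111 (1.32 ± 0.16) and FERMT1 from 9.65 to 3.83 (-1.25 ± 0.16). DB2313 raised 11 and lowered 9 (median 0.04), with FYB1 at 335 CPM (2.77 ± 0.16), FERMT1 at 0.421 (-4.57 ± 0.22) and the talin gene TLN2 from 26.7 to 2.33 (-3.58 ± 0.20).

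Of the integrin ligands, 13 of 15 were tested, and 8 were higher and 3 lower with BRM014 at 72 h (median 1.03). ICAM4, a red cell ligand, rose from 8.68 to 84.7 CPM in MOLM-13, 1.05 to 11.1 in MV-4-11 and 0.137 to 6.02 in THP-1 (3.91 ± 0.18, edgeR adjusted p = 6.95e-14). ICAM2, a constitutive ligand of LFA-1, fell from 11.4 to 0.812, 14.6 to 2.37 and 1.79 to 0.344 CPM (-3.02 ± 0.25). SPP1 (osteopontin) was lower in each line, from 7.73 to 0.912 CPM in THP-1 and from 22 reads to 0 in MOLM-13, at least 8.73-fold. ICAM5 was called higher in the mean, through THP-1, where it went from 0 to 57 reads, at least 19.98-fold. PMA raised 7 and lowered 1 (median 1.44), with SPP1 at 1859.5 CPM (7.98 ± 0.20) and fibronectin (FN1) from 5.25 to 162 CPM (5.04 ± 0.22). DB2313 raised 8 and lowered 2 (median 2.28), with ICAM1 from 1.07 to 14.2 CPM (3.70 ± 0.41, or 4.37 without the first DMSO library) and thrombospondin (THBS1) from 0.989 to 10.1 (3.27 ± 0.43). ICAM5 went from 0 reads to 12 with PMA and 59 with DB2313, at least 3.66-fold and 17.7-fold higher.

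Of the hyaluronan and CD44 partner genes, 17 of 19 were tested, and 10 were higher and 3 lower with BRM014 at 72 h (median 0.83, or 0.73 with 3 genes at their bound). The hyaluronan synthase gene HAS3 rose from 1.48 to 11.5 CPM in MOLM-13, 1.85 to 15.7 in MV-4-11 and 1.40 to 34.6 in THP-1 (3.45 ± 0.14, edgeR adjusted p = 5.60e-15). HAS1 rose from 6 to 67 reads, 0 to 31 (at least 11.0-fold) and 9 to 64 in the same lines. CEMIP2, a surface hyaluronidase, rose from 0.961 to 3.03, 3.23 to 16.4 and 7.76 to 28.4 CPM (1.86 ± 0.18), and HYAL3 fell from 9.99 to 3.13, 34.6 to 14.5 and 51.8 to 12.3 CPM (-1.78 ± 0.08). With PMA 5 were higher and 4 lower (median -0.02), and with DB2313 10 were higher and 4 lower (median 0.46). The hyaluronan scavenger receptor STAB1 had no read with DMSO and 295 and 536 with PMA and DB2313, at least 90.1-fold and 161-fold higher. Versican (VCAN) went from 126 to 1272 CPM with PMA (3.42 ± 0.14). HAS1 went from 9 reads to 165 with DB2313 (3.90 ± 0.60, or 4.63 without the first DMSO library). TNFAIP6, which modifies hyaluronan, had 4 reads with DMSO and 75 with DB2313 (3.93 ± 0.92, from 3.21 to 4.99 without either DMSO library). With PMA it had 48 reads, 43 in the first library and 5 in the second (3.42 ± 0.97). That call was lost without the first PMA library (1.30, edgeR adjusted p = 0.425) or the second DMSO library (2.71, 0.105), and the value was 4.22 without the second PMA library and 4.49 without the first DMSO library.

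Of the selectin ligand and rolling genes, 11 of 14 were tested, and 1 was higher and 6 lower with BRM014 at 72 h (median -0.35). FUT7, which builds the sialyl Lewis x group that selectins bind, fell from 78.1 to 10.5 CPM in MOLM-13, 43.0 to 15.9 in MV-4-11 and 30.5 to 10.2 in THP-1 (-2.08 ± 0.10, edgeR adjusted p = 9.71e-14). The sialyltransferase ST3GAL4 fell from 65.0 to 27.5, 128 to 48.5 and 64.0 to 35.0 CPM (-1.28 ± 0.05). SPN (CD43), a mucin of leukocyte surfaces, fell from 942 to 169, 731 to 618 and 538 to 278 CPM (-1.34 ± 0.04). The sialomucin gene PODXL fell in MOLM-13 (-2.57) and THP-1 (-2.10) and was not called in MV-4-11 (-0.50). PMA raised 3 and lowered 5 (median -0.36), with the fucosyltransferase gene FUT4 from 356 to 159 CPM (-1.08 ± 0.07) and PODXL from 12.5 to 5.55 (-1.09 ± 0.29), a call lost without the second PMA library (-0.83, edgeR adjusted p = 0.0566). DB2313 raised 4 and lowered 5 (median 0.23), with GCNT1, which starts branched O-glycans, from 63.0 to 14.0 CPM (-2.24 ± 0.10) and the galactosyltransferase gene B4GALT1 from 57.2 to 131 CPM (1.12 ± 0.09). CD99 was called lower with DB2313 (adjusted p = 0.0496), but its 2 DMSO libraries averaged 29.5 ± 34.8 CPM (SD). Its value was -3.25, but -0.70 without the first DMSO library (adjusted p = 0.769) and -4.16 without the second, and it was not called without either DB2313 library.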

How the data were processed

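RNA of 3 leukaemia lines was sequenced in 22 libraries, and the authors deposited 1 table of read counts per gene symbol for each library, not normalized. HISAT2 2.1.0, HTSeq, DESeq2 and the build hg38 are named per the submitters' processing notes, and the counting annotation and strand setting are not given in the sources used here. Summary lines that name no gene (reads outside genes 12.03% to 19.17%, ambiguous reads 3.04% to 3.82%) were left out. CPM was computed from the totals of gene rows.

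Groups came from the sample labels. Tests used edgeR 4.0.16 in R 4.3.3: TMM scaling, a minimum count of 10, and 1 quasi-likelihood fit with a term per group, leaving 11 residual degrees of freedom. The SE is the log2 fold change over the root of its F statistic. P-values were adjusted by Benjamini-Hochberg over 16794 genes. Differences between lines were tested as contrasts of contrasts. Intervals and floors (3 reads, 95%) cover counting error only.

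Per-length levels divide CPM by the union of exons in GENCODE v29. Upstream windows came from the RefSeq promoter table. Genes were named by rule: the 9 genes always, up to 4 genes per list with the largest called change at 72 h of BRM014 and up to 3 each for PMA and DB2313, and the 3 most similar genes by profile. A few genes that this rule or the marker lists name are not reported here. The members and lists were chosen with earlier results of these data known. Alternatives were DESeq2 1.42.0, library size alone, RLE factors, no filter, a minimum count of 30, a replicate block, a fit to the compared lines only (without PMA or DB2313 libraries where the comparison did not use them), each library left out, longest transcripts and Spearman's rho.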

Additional observations from a re-analysis of the deposited data

Results flagged for a closer look

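The BRM014 effect on 17 of the 18 gene and time combinations differed between MOLM-13, MV-4-11 and THP-1, as tested with edgeR's F test of the difference between lines over all genes. The 24 h effects differed for ITGAL (adjusted p = 2.20e-10; log2 fold changes -1.50, -2.84 and -1.30 in that order of lines), ITGAM (9.89e-10; -0.46, -1.24 and 1.52), ITGB2 (1.75e-09; -0.16, -1.61 and 0.17), ITGAX (4.67e-08; -6.16, -4.21 and -1.88) and ITGA4 (1.09e-07; 0.18, -0.39 and -1.44). Smaller differences at 24 h were those of CD44 (adjusted p = 4.67e-05), ITGA5 (0.000148) and ITGB1 (0.00266).

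The 72 h effects differed for ITGB2 (adjusted p = 9.50e-12; 1.22, -1.22 and 0.58), ITGA5 (3.92e-10; -0.64, 0.98 and -0.08), CD44 (5.94e-10; -4.56, -1.53 and -2.56), ITGAX (9.37e-09), ITGA4 (3.76e-07; -3.35, -1.87 and -2.14) and ITGB7 (4.18e-06; -1.60, 0.70 and -0.57). They also differed for ITGAL (1.25e-05), ITGB1 (0.00134) and ITGAM (0.00135). Of all genes, 43.5% at 24 h and 52.9% at 72 h passed the same test. No group had enough libraries for a test of single outlying libraries.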

How the results depend on the processing

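Of 2169 recomputed values of 171 results on the 9 genes, 2093 kept their direction and side of the threshold, 26 passed it only in the alternative, 31 no longer passed it and 19 changed sign. The counts of the 9 genes called, and of all genes called, stayed within 1.5 times in every alternative. The 19 sign changes were of values not called. With library size alone they were ITGAM in MOLM-13 at 72 h (0.0447), ITGAM in the mean of lines at 24 h (0.0210), ITGA5 in THP-1 at 72 h (0.00184), CD44 from 24 h to 72 h in MV-4-11 (-0.00917) and ITGB1 with DMSO in THP-1 against MOLM-13 (0.0784). CD44 in MV-4-11 was -0.0233 with no filter and -0.0112 in the fit to the compared lines, where ITGAM in THP-1 at 72 h was -0.0190. With 1 library left out, ITGAM ranged from -0.116 to 0.197 in THP-1 at 72 h, from -0.236 to 0.0519 in the mean at 24 h and from -0.102 to 0.212 in DMSO THP-1 against MOLM-13. From 24 h to 72 h, ITGA5 ranged from -0.0455 to 0.0680 in MOLM-13, and CD44 from -0.0669 to 0.0676 in MV-4-11 and -0.0244 to 0.287 in THP-1. With PMA, ITGA5 ranged from -0.12 to 0.00502 and ITGA4 from -0.286 to 0.0977. ITGB1 in DMSO THP-1 against MOLM-13 ranged from -0.171 to 0.0327. The cause was not tested.

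With the longest transcript as length, the median over groups of ITGB2 over its alpha chains was 1.76 in place of 1.57, and that of ITGA4 over ITGA5 0.831 in place of 0.668. With library size alone the median of all genes moved by 0.16 in MOLM-13 at 72 h, 0.10 in the mean at 72 h and 0.15 in DMSO THP-1 against MOLM-13, and the share of calls that were higher went from 52.5% to 41.0% for PMA, 49.1% to 59.3% for MOLM-13 at 24 h and 46.5% to 56.9% for DMSO MV-4-11 against MOLM-13. A replicate block changed 1 call, ITGB7 in DMSO THP-1 against MOLM-13 (0.29, adjusted p = 0.0308), which 6 other alternatives also called. Replicate numbers did not pair the libraries: over 16 pairs of groups, the correlation of replicate differences ran from -0.12 to 0.09. With 2 libraries a group, 3 reads (0.139 to 0.189 CPM) set the floor, which ITGAX reached.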
